A study of Mus musculus with 9 samples.

Results

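The transcripts of 7 genes whose proteins package the DNA of the maturing spermatid were followed in mouse testis: the protamines Prm1, Prm2 and Prm3, the transition proteins Tnp1 and Tnp2, and the spermatid linker histones Hils1 and H1fnt. They were selected by symbol from the table of 38685 genes and loci, and all 7 were found. No rule on their measured values was used, but earlier results of these data were known. Testis RNA came from male C57BL/6 mice of a Prm2-deficient line made by CRISPR/Cas9 gene editing, in 3 genotypes: Prm2+/+ (wildtype, 3 libraries), Prm2+/- (heterozygous, 3 libraries) and Prm2-/- (Prm2-deficient, 3 libraries). The ages of the males, the position of the edit within Prm2 and the number of founder lines behind the samples were not given in the sources used here. The tunica albuginea, the capsule of the testis, had been removed, and libraries were made with QuantSeq, which reads polyadenylated RNA near its 3' end.

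In the elongating spermatid most histones are removed from the DNA, transition proteins take their place for a time, and the small, arginine-rich protamines then condense the chromatin of the sperm head. Mouse sperm use both PRM1 and PRM2, of which PRM2 is made as a precursor that is shortened after it binds DNA. The mRNAs of these genes are transcribed in round spermatids and are stored for days before translation, so an mRNA level in whole testis is not a protein level.

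Of the 7 genes, 4 form a cluster on chromosome 16 of GRCm38 (GENCODE M21 annotation), which spans 17904 bases at chr16:10787936-10805839. All 4 lie on the minus strand, with Prm1 (ENSMUSG00000022501, chr16:10796326-10805839) first in the direction of transcription, followed by Prm2 (ENSMUSG00000038015, chr16:10791380-10796134), Prm3 (ENSMUSG00000050058, chr16:10790505-10790914) and Tnp2 (ENSMUSG00000043050, chr16:10787936-10788660). The annotated spans leave 191 bases between Prm1 and Prm2, 465 between Prm2 and Prm3, and 1844 between Prm3 and Tnp2. The RefSeq starts used below for the promoters, chr16:10796823 for Prm1 and chr16:10792105 for Prm2, lie well inside these GENCODE spans. The span of the cluster and the gap of 191 bases therefore depend on the annotation, and from the RefSeq starts the cluster is shorter and this gap wider. The other 3 genes lie elsewhere: Tnp1 (ENSMUSG00000026182) at chr1:73015074-73015909 on the minus strand, Hils1 (ENSMUSG00000038994) at chr11:94967593-94968456 on the plus strand and H1fnt (ENSMUSG00000048077) at chr15:98255986-98257293 on the minus strand.

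The proximal promoters of the clustered genes and of Tnp1 are shown because these 5 genes are transcribed in the same cells, and because the 4 neighbours differed in level although they lie side by side. Each sequence gives the 150 bases before the RefSeq start on GRCm38.p6, 5' to 3' on the gene's own strand, at chr16:10796824-10796973 for Prm1, chr16:10792106-10792255 for Prm2, chr16:10790915-10791064 for Prm3, chr16:10788656-10788805 for Tnp2 and chr1:73015900-73016049 for Tnp1, all on the minus strand. Capitals mark TGACGTCA, the full palindromic cAMP-response element that CREM can bind, with up to 1 base different, and TATAA or TATATA, short TATA box cores.
Prm1: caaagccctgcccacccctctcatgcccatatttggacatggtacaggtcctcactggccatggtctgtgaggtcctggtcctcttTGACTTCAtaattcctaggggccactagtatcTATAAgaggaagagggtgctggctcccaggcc
Prm2: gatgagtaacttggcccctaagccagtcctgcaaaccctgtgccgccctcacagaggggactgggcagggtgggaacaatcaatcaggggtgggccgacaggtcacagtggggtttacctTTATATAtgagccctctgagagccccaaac
Prm3: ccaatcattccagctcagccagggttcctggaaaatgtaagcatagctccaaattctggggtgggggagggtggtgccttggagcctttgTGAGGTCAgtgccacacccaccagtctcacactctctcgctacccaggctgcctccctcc
Tnp2: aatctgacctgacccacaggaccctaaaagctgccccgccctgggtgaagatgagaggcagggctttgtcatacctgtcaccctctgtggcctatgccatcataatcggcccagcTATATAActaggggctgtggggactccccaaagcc
Tnp1: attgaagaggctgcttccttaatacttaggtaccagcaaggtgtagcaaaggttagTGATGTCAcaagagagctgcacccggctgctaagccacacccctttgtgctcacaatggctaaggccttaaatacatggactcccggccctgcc
Both strands were searched in windows of 300 bases, from 250 before to 50 after the start. The exact TGACGTCA was in the window of 0 of the 7 genes, against 1.79% of 32851 mouse promoters. A form with up to 1 base different was in 4 of the 7 (Prm1, Prm3, Tnp1 and Hils1), against 12.5% of all promoters. The bases were TGACTTCA in Prm1, at positions -64 to -57 counted from the start with -1 just before it, TGAGGTCA in Prm3 at -60 to -53, and TGATGTCA in Tnp1 at -94 to -87. In Hils1, TGAGGTCA lay at -7 to 0, so this match runs over the start itself. TATAA or TATATA was in 3 of the 7 (Prm1, Prm2 and Tnp2), against 26.5% of all promoters, and lay within 35 bases before the start in each. In Prm2 and Tnp2 the 2 forms overlapped. The TATAA of Prm2 was on the strand opposite to the gene, so it reads TTATA in the sequence shown, and only its TATATA was on the gene's own strand. These are matches of letters, and binding was not measured.

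Library totals ran from 3629929 to 4490411 counts, of which mitochondrial genes took 2.37% to 3.12%. Replicate 3 of Prm2+/+ differed from the other 8 libraries in its spermatocyte markers. The summed normalized count of 7 of them was 4960 in it and 30116 to 39259 in the others. Most of this gap came from Ldhc, a lactate dehydrogenase of spermatocytes and spermatids (2505 against 27414 to 36393). The other 6 markers summed to 2455 in this library and to 2613 to 3539 in the others. Jumps of single genes were also seen in other libraries, as given below. For the 7 genes, values that this library moved strongly are given with and without it, and its part in them was otherwise not tested. Markers of spermatids matched the tissue label, with summed counts of 8 genes of elongating spermatids of 34616 to 43421 and of 6 genes of round spermatids of 5191 to 5816. A list of 6 epididymis genes also summed to 1986 to 2403, of which Lcn5 was at 0 in all libraries and 1 gene passed the filter for testing. The source of these counts was not tested. Lower levels in a bulk sample can mean fewer cells of a type or less RNA per cell, which cannot be told apart here.

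The 7 genes together held 5.83% to 6.30% of all counts of a library. Their share was 6.14% ± 0.219 in Prm2+/+, 6.06% ± 0.203 in Prm2+/- and 5.97% ± 0.138 in Prm2-/- (SD, n = 3 each), so the genotypes overlapped. Prm1 alone took 2.31% to 2.82% and had the highest mean count of all genes tested. Each gene was counted deeply, from 1779 recovered counts of H1fnt in its lowest library to 119501 of Prm1 in its highest. Counting error is therefore small beside the spread between libraries pooled over the genotypes. Within a single genotype this need not hold, as for Prm3 in Prm2-/- (SD 1.93% of the mean) and H1fnt in Prm2+/- (2.16%).

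To set the genes against each other, normalized counts were divided by the exon length of each gene. Per kilobase of exon, Prm1 had a mean level of 179065 normalized counts over the 9 libraries and ranked 1 of 14870 genes with a length. Tnp1 ranked 2 with 154886, Tnp2 ranked 5 with 44357 and Prm2 ranked 7 with 38310. Prm3, an acidic protein of the spermatid cytoplasm despite its name, followed at rank 22 with 12540. The linker histones were lowest, with 4982 for Hils1 at rank 49 and 1750 for H1fnt at rank 173. Per kilobase the order of the 7 was not fixed at every step. Prm1 was above Tnp1 in 8 of 9 libraries and below it in replicate 3 of Prm2+/+. Tnp2 was above Prm2 in 8 of 9 and below it in replicate 3 of Prm2-/-. The other 4 neighbouring pairs kept their order in all 9 libraries. Since 3' reads do not grow with transcript length, the levels and ranks per kilobase and these reversals depend on the division by exon length. The length used was that of all annotated exons of a gene together. By plain count Prm1 was above Tnp1 and Prm2 above Tnp2 in all 9 libraries, with Prm2 at rank 4 and Tnp2 at rank 7.

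**Figure D1:**
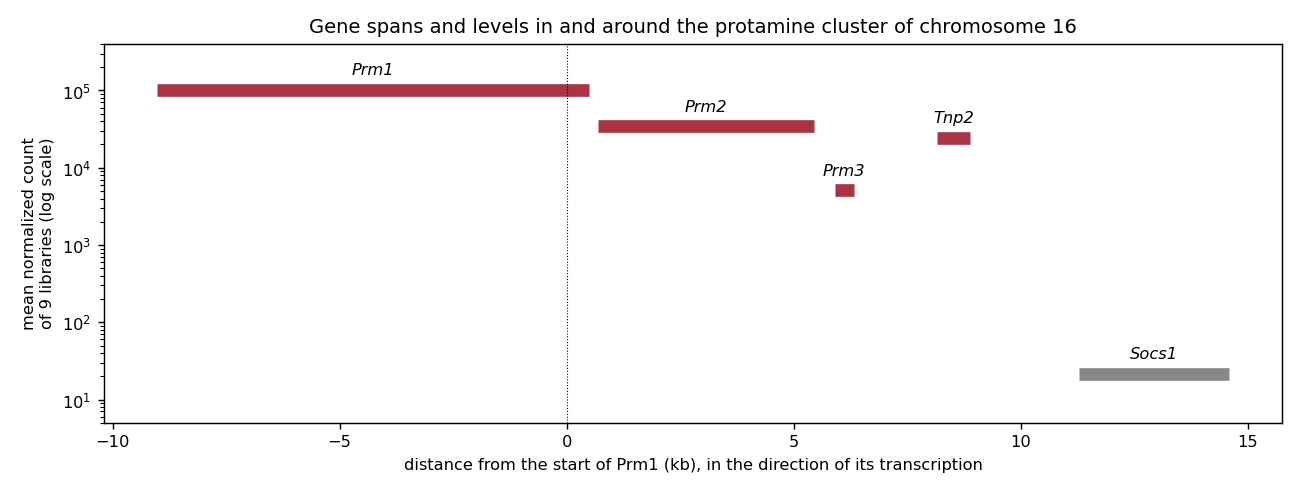
Mean normalized count of the 9 libraries (log scale) against distance in kb from the RefSeq start of Prm1, in the direction of its transcription; bars are GENCODE gene spans, red for the 4 genes of the cluster and grey for the neighbour Socs1. The 4 genes sit between 5141 (Prm3) and 102246 (Prm1) normalized counts, while Socs1 next to them had 9.94 to 27.9.

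The genes around the cluster were expressed at a small fraction of its level. Socs1, an inhibitor of cytokine signalling downstream of Tnp2, had 9.94 to 27.9 normalized counts, and Clec16a, an autophagy-related gene beyond it, had 18.6 to 139. On the other side, Gm11172 was at 0 in all libraries and Gm26822 was at 0 in all but replicate 3 of Prm2-/-, where it had 5.28. Rmi2, a subunit of the BLM helicase complex at chr16:10835059-10892966, had 26.6, 25.7 and 29.8 normalized counts in Prm2+/+, 20.8, 22.8 and 26.5 in Prm2+/-, and 14.5, 10.1 and 9.50 in Prm2-/-. All 3 Prm2-/- libraries lay below the other 6 for Rmi2, yet the difference from Prm2+/+ missed the threshold after adjustment (log2 fold change -1.22, 95% interval -1.72 to -0.71, adjusted p = 0.184 in limma). These are low counts, at most 29.8 in a library.

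The effect of losing Prm2 on each gene was tested with limma on log2(normalized count + 1), and a gene was called at a Benjamini-Hochberg adjusted p under 0.05 over 14893 genes and a log2 fold change (LFC) beyond 0.5. None of the 7 genes was called between Prm2-/- and Prm2+/+ (0 of 7, against 0.181% of all genes tested), and edgeR and DESeq2 on the recovered counts also called 0. An unadjusted p under 0.05 was found for 1 of the 7, Tnp1 (against 7.33% of all genes), and this count turned on replicate 3 of Prm2+/+: without that library the unadjusted p in limma was 0.0927 for Tnp1 and 0.00917 for Prm2. For Tnp1 it was 0.0911 in edgeR and 0.0595 in DESeq2. The libraries of Prm2-/- lay below those of Prm2+/+ without overlap for 2 of the 7 genes, Prm3 and Tnp1 (against 7.1% of all genes), and above them for 0 of 7 (6.92%), so that 2 of 7 separated in either direction (14%). The LFCs of the 7 lay between -0.25 and 0.20 with a median of -0.07, while the median over all genes tested was 0.02. The 95% interval stayed within 0.5 on either side of 0 for 6 of the 7 and reached -0.53 for Prm3.

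**Figure D2:**
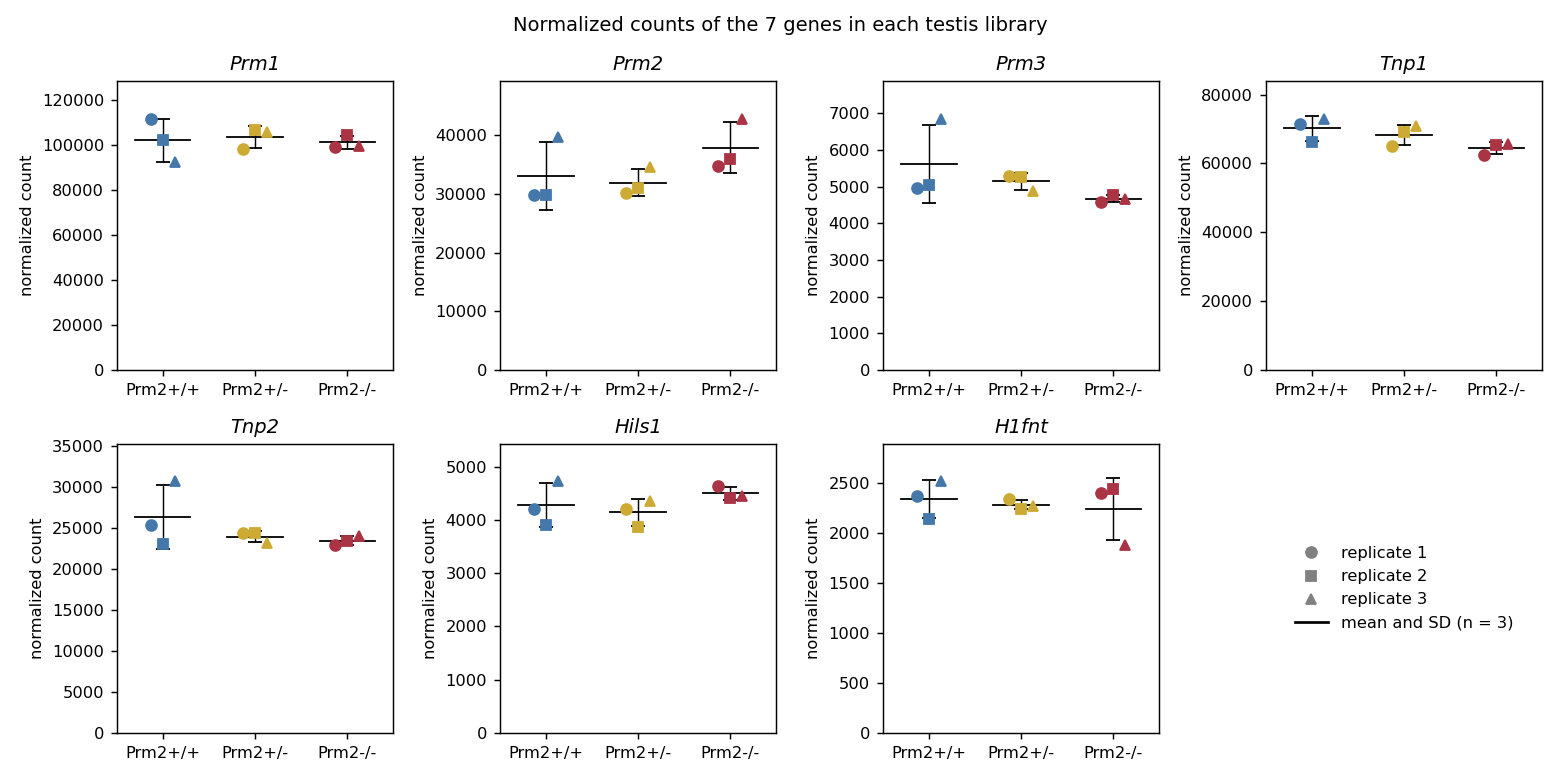
Normalized count of each gene (vertical axes from 0) in the 9 testis libraries by genotype; symbols are replicates, lines and bars are the mean and SD of 3 libraries. Prm2 in the Prm2-/- libraries sits between 34660 and 42766, not below the 29716 to 39665 of Prm2+/+, and replicate 3 of Prm2+/+ (blue triangle) is the highest of its group for 6 of the 7 genes and the lowest for Prm1.

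Prm2, the targeted gene, was not lower in the libraries labelled Prm2-/-. Its normalized count was 29757, 29716 and 39665 in Prm2+/+, 30174, 31011 and 34487 in Prm2+/-, and 34660, 36004 and 42766 in Prm2-/-. Replicate 3 of Prm2+/+ was the second highest of the 9 libraries, and without it every Prm2-/- library lay above every other library. The LFC between Prm2-/- and Prm2+/+ was 0.20 (95% interval -0.10 to 0.50, adjusted p = 0.746 in limma). Without replicate 3 of Prm2+/+ it was 0.34 (0.11 to 0.57, adjusted p = 0.419 in limma), and without replicate 3 of Prm2-/- it was 0.11. QuantSeq counts transcripts by their 3' end, and the position of the edit within Prm2 was not given. Whether edited transcripts are still counted as Prm2 was not tested, so the Prm2 level does not check the genotype labels.

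Prm1, the protamine shared by all mammals, differed little. It had 111606, 102155 and 92615 normalized counts in Prm2+/+, 98168, 106830 and 105593 in Prm2+/-, and 99038, 104509 and 99700 in Prm2-/-. The highest and the lowest of the 9 libraries were both Prm2+/+, and the other genotypes lay between them. The LFC between Prm2-/- and Prm2+/+ was -0.01 with a 95% interval of -0.17 to 0.15 (adjusted p = 0.983 in limma), which spans 0.890-fold to 1.11-fold. The annotated span of Prm1 overlaps Gm46563 and Gm10343 on the plus strand. Both lie upstream of the RefSeq start of Prm1 and were not analysed here.

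Prm3 lay lowest in the Prm2-/- libraries. Its normalized count was 4958, 5054 and 6846 in Prm2+/+, 5279, 5261 and 4873 in Prm2+/-, and 4583, 4762 and 4655 in Prm2-/-. All 3 Prm2-/- libraries lay below the other 6, and their SD of 90.1 was smaller than that of Prm2+/- (229) or Prm2+/+ (1064). The LFC between Prm2-/- and Prm2+/+ was -0.25 (95% interval -0.53 to 0.02, adjusted p = 0.710 in limma). It was -0.10 (-0.21 to 0.01, adjusted p = 0.631 in limma) without replicate 3 of Prm2+/+, the highest library of all 9, and -0.33 (-0.63 to -0.04, adjusted p = 0.591 in limma) without replicate 1 of Prm2+/+.

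The transition proteins stand between histones and protamines on spermatid DNA, and Tnp1 was the less variable of them. Tnp1 had 71441, 66174 and 72964 normalized counts in Prm2+/+, 65183, 69002 and 70894 in Prm2+/-, and 62524, 65316 and 65668 in Prm2-/-. The Prm2-/- libraries lay below those of Prm2+/+ and overlapped those of Prm2+/-. The LFC between Prm2-/- and Prm2+/+ was -0.12 (95% interval -0.24 to -0.01), or 0.920-fold, and did not pass after adjustment (adjusted p = 0.660 in limma). The interval held 0 without replicate 3 of Prm2+/+ (LFC -0.09, -0.20 to 0.02, adjusted p = 0.664 in limma). Tnp1 overlaps 1700027A15Rik, an antisense gene with 2819 to 3340 normalized counts and an LFC of 0.12 (adjusted p = 0.721 in limma), and whether counting used the strand was not given in the sources used here. Reads of this pair may therefore not be told apart.

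Tnp2 had 25301, 23037 and 30662 normalized counts in Prm2+/+, 24326, 24355 and 23164 in Prm2+/-, and 22873, 23430 and 24016 in Prm2-/-. Replicate 3 of Prm2+/+ was the highest library, and the other 8 lay between 22873 and 25301. The LFC between Prm2-/- and Prm2+/+ was -0.16 (95% interval -0.38 to 0.06, adjusted p = 0.741 in limma) with this library and -0.04 (-0.15 to 0.07, adjusted p = 0.832 in limma) without it. Leaving out replicate 2 of Prm2+/+, the lowest of its group, moved it the other way, to -0.25 (-0.44 to -0.06, adjusted p = 0.494 in limma).

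Hils1, a linker histone of elongating spermatids, had 4207, 3894 and 4720 normalized counts in Prm2+/+, 4206, 3857 and 4356 in Prm2+/-, and 4641, 4407 and 4451 in Prm2-/-. The Prm2-/- libraries overlapped those of Prm2+/+ and lay above those of Prm2+/-. Between Prm2-/- and Prm2+/+ the LFC was 0.08 (95% interval -0.11 to 0.27, adjusted p = 0.801 in limma), and without replicate 3 of Prm2+/+ it was 0.15 (-0.00080 to 0.31, adjusted p = 0.594 in limma). Without replicate 2 of Prm2+/+ it was 0.01 (-0.18 to 0.21, adjusted p = 0.967 in limma). Hils1 lies within Sgca, which is on the opposite strand and had 40.9 to 59.4 normalized counts.

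H1fnt, a linker histone of round and elongating spermatids, had 2374, 2138 and 2516 normalized counts in Prm2+/+, 2340, 2245 and 2269 in Prm2+/-, and 2400, 2437 and 1879 in Prm2-/-. Replicate 3 of Prm2-/- was the lowest of all 9, while the other Prm2-/- libraries were among the 4 highest. The LFC between Prm2-/- and Prm2+/+ was -0.07 (95% interval -0.33 to 0.19, adjusted p = 0.872 in limma), and without that library it was 0.05.

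The comparison of Prm2+/- with Prm2+/+, which shares the Prm2+/+ libraries with the one above, asks what the loss of 1 allele does to these transcripts. None of the 7 genes was called (0 of 7, against 0.0806% of all genes tested in limma, and 0 in edgeR and DESeq2), 0 had an unadjusted p under 0.05 (4.24% of all genes), and 0 separated the 6 libraries without overlap in either direction (9.44%), upwards (4.88%) or downwards (4.56%). The LFC of Prm2 was -0.04 with a 95% interval of -0.34 to 0.26 (adjusted p = 0.953 in limma). The interval does not hold a fall by 1 on the log2 scale, as a halved level would give. This does not measure the loss of an allele, since Prm2 was not lower in Prm2-/- either. Tnp2 and Prm3 had the lowest LFCs, -0.13 and -0.11, and without replicate 3 of Prm2+/+ these were -0.01 and 0.04. All 7 intervals held 0 and stayed within 0.5 on either side of it.

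Between Prm2-/- and Prm2+/-, 0 of the 7 genes were called (against 0.175% of all genes tested in limma, and 0 in edgeR and DESeq2), and 0 had an unadjusted p under 0.05 (5.44%). The Prm2-/- libraries lay above those of Prm2+/- without overlap for Prm2 and Hils1 (2 of 7, against 7.47% of all genes) and below them for Prm3 (1 of 7, against 7.25%), which makes 3 of 7 in either direction (14.7%). The LFC of Prm2 was 0.24 (95% interval -0.06 to 0.54, adjusted p = 0.963 in limma), and leaving out replicate 3 of Prm2-/- lowered it to 0.15. Hils1 had an LFC of 0.12 (-0.07 to 0.31, adjusted p = 0.977 in limma) and Prm3 of -0.14 (-0.41 to 0.14, adjusted p = 0.986 in limma). Replicate 3 of Prm2+/+ enters these values through the shared estimate of spread, and without it the interval of Prm2 was 0.04 to 0.44 (unadjusted p = 0.0253, adjusted p = 0.570 in limma) and that of Prm3 -0.24 to -0.04 (unadjusted p = 0.0147, adjusted p = 0.538 in limma). With only the 6 samples compared the unadjusted p in limma was 0.0391 for Prm2 and 0.0257 for Prm3, so that neither interval held 0 under these settings and neither gene was called. In the same libraries the summed markers of elongating spermatids were 40496 to 43421 in Prm2-/- and 34616 to 36812 in Prm2+/-, and of the 8 genes in that list 0 were called. The summed Sertoli cell markers were also higher (2752 to 3008 against 2449 to 2563, with Amh at 0 in all libraries). The spermatocyte markers were lower (30116 to 31384 against 32500 to 39259) through Ldhc, and the other 6 of that list overlapped (2659 to 2756 against 2613 to 2971). The part of these shifts in the values of Prm2, Hils1 and Prm3 was not tested.

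**Figure D3:**
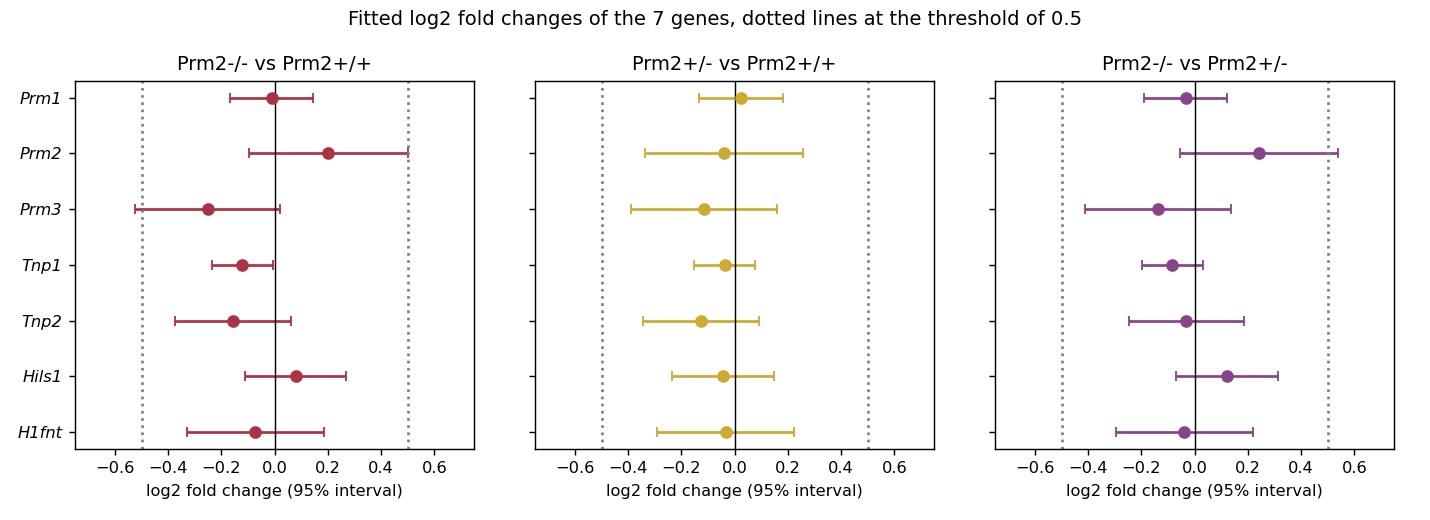
Fitted log2 fold change (points) with 95% interval (bars) of each of the 7 genes in the 3 comparisons, which share samples; dotted lines mark the threshold of 0.5. Every point lies between -0.25 and 0.24, and an interval passes a dotted line for Prm3 in Prm2-/- vs Prm2+/+ and for Prm2 in Prm2-/- vs Prm2+/-.

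How precisely these levels were measured sets what could have been seen. The residual SD on the log2 scale was 0.06 for Tnp1, the lowest of the 7, and 0.18 for Prm2, the highest, with a median of 0.13. Over all 14893 genes the median was 0.30, and over the 730 genes with a mean of at least 1000 normalized counts it was 0.15. For comparison, the LFC of 77.8% of all genes lay within 0.5 on either side of 0 between Prm2-/- and Prm2+/+.

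Ratios within a library do not depend on how libraries were scaled, and that of Prm1 to Prm2 was of interest because the balance of both protamines marks sperm chromatin. The ratio of normalized counts of Prm1 to Prm2 was 3.75, 3.44 and 2.33 in Prm2+/+, 3.25, 3.44 and 3.06 in Prm2+/-, and 2.86, 2.90 and 2.33 in Prm2-/-. It was 3.17 ± 0.744 in Prm2+/+, 3.25 ± 0.192 in Prm2+/- and 2.70 ± 0.318 in Prm2-/- (SD, n = 3 each). The Prm2-/- libraries lay below those of Prm2+/- without overlap and overlapped Prm2+/+ through its replicate 3. As a share, Prm2 made up 22.5% to 24.6% of the summed counts of both genes in Prm2+/- and 25.6% to 30.0% in Prm2-/-. A ratio of transcripts by 3' reads is not a ratio of protein.

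The remaining ratios were looked at after the values were seen and are given as descriptions. Prm2 to Prm3, neighbours separated by 465 bases, was 6.00, 5.88 and 5.79 in Prm2+/+, 5.72, 5.89 and 7.08 in Prm2+/-, and 7.56, 7.56 and 9.19 in Prm2-/-. All Prm2-/- libraries lay above the other 6 for this ratio, and the Prm2+/+ libraries agreed closely, replicate 3 included. Summed protamine (Prm1 and Prm2) to summed transition protein counts (Tnp1 and Tnp2) was 1.46, 1.48 and 1.28 in Prm2+/+, 1.43, 1.48 and 1.49 in Prm2+/-, and 1.57, 1.58 and 1.59 in Prm2-/-, again with the Prm2-/- libraries above all others. Tnp1 to Tnp2 overlapped between all genotypes, from 2.38 in replicate 3 of Prm2+/+ to 3.06 in replicate 3 of Prm2+/-. Hils1 to H1fnt was 2.37 in replicate 3 of Prm2-/- and 1.72 to 1.93 in the other 8 libraries.

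**Figure D4:**
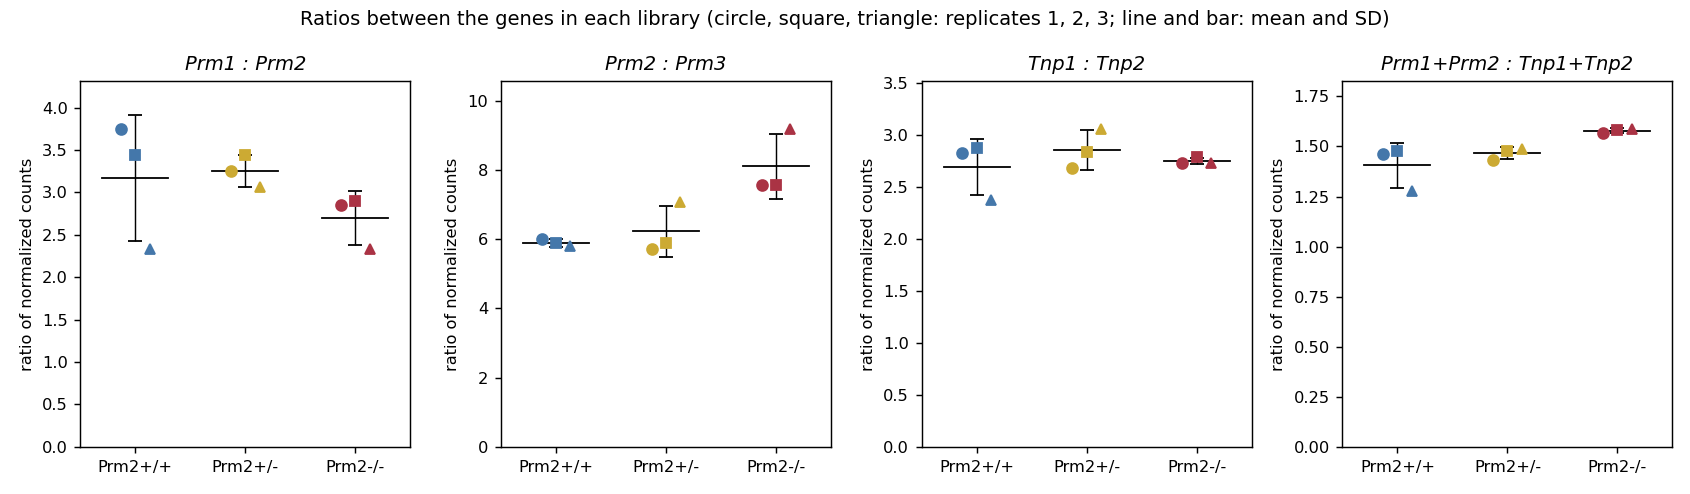
Ratio of normalized counts (vertical axes from 0) between pairs of the genes in each of the 9 libraries by genotype; symbols are replicates, lines and bars the mean and SD of 3 libraries. Prm2 to Prm3 sits at 7.56 to 9.19 in Prm2-/- and at 5.72 to 7.08 in the other genotypes, while Tnp1 to Tnp2 overlaps throughout.

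Library by library, the 7 genes did not move as a block. Compared with the mean of the other Prm2+/+ libraries, replicate 3 of Prm2+/+ was 36.8% higher for Prm3, 33.4% higher for Prm2, 26.9% higher for Tnp2, 16.5% higher for Hils1, 11.5% higher for H1fnt and 6.04% higher for Tnp1. For Prm1 the difference was -13.3%. The most alike pair over the 9 libraries was Prm3 and Tnp2 (Pearson r = 0.92 on the log2 scale), which fell to 0.45 over the 8 libraries without that replicate. Prm2 and Hils1 had r = 0.74 with it and 0.66 without it. Prm1 and Tnp1 had r = 0.16 with it and 0.85 without it, and Prm2 and Prm3 had 0.12 with it and -0.75 without it. These correlations are descriptions over libraries that share genotype and scaling, and most turn on 1 library.

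**Figure D5:**
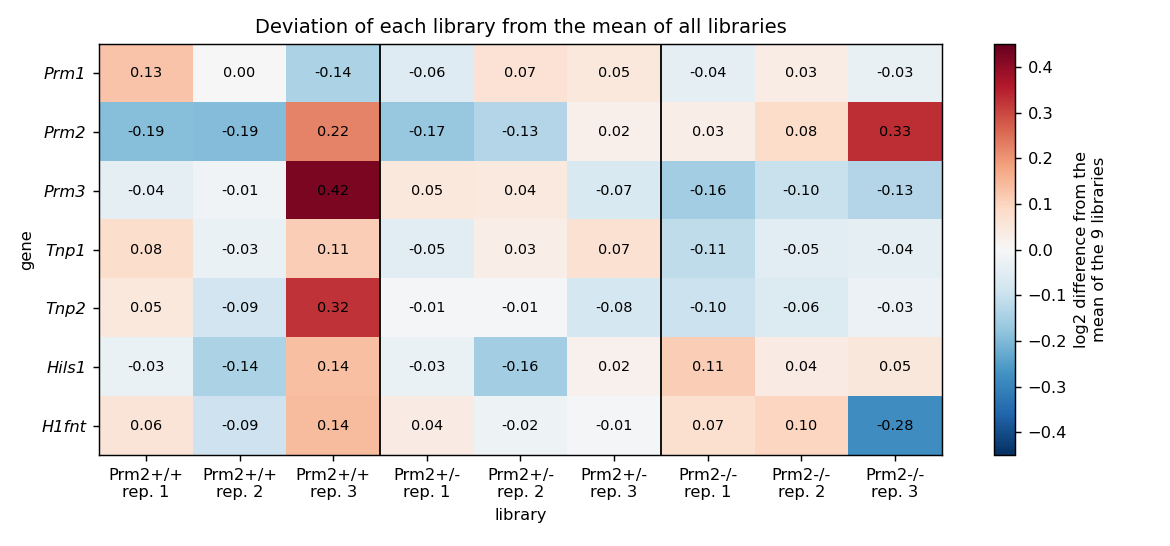
Log2 difference of each gene (rows) in each library (columns) from its mean over the 9 libraries; red is higher and blue lower. Replicate 3 of Prm2+/+ holds the highest value, 0.42 for Prm3, and replicate 3 of Prm2-/- holds both 0.33 for Prm2 and -0.28 for H1fnt.

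For each of the 7, the most similar patterns among 5883 tested genes with a mean of at least 100 normalized counts were looked up by Pearson r over the 9 libraries, with r over 8 libraries (without replicate 3 of Prm2+/+) beside it. Prm2 was followed most closely by Capns1, the small subunit of calpain (r = 0.95, then 0.94), Trappc2l (0.95, then 0.94) and Ndufb7, a subunit of mitochondrial complex I (0.95, then 0.94). Prm1 was nearest to Hells (0.94, then 0.90), Naif1 (0.93, then 0.90) and Tuba3a, an alpha-tubulin of testis (0.93, then 0.87). Tnp1 was nearest to Prss51 (0.97, then 0.97), Spaca9 (0.95, then 0.94) and Prss37 (0.95, then 0.94). Tnp2 was nearest to Tuba8 (0.99, then 0.90), Letm2 (0.97, then 0.93) and 1700030C12Rik (0.97, then 0.70). Prm3 was nearest to Dnajb7 (0.97, then 0.87), Lexm (0.97, then 0.82) and Ttc29 (0.97, then 0.78). Hils1 was nearest to the ribosomal protein gene Rpl37a (0.96, then 0.94), Bcl2l1 (0.94, then 0.94) and Oplah (0.94, then 0.92). H1fnt was nearest to Ctag2 (0.96, then 0.95), Dnajc18 (0.93, then 0.92) and Arl2bp (0.93, then 0.98). With 9 libraries and 5883 genes, high values of r arise in any search of this kind.

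Genes that act on these transcripts or proteins were read from the same fits in 5 lists, of which 45 of 50 genes could be tested. Between Prm2-/- and Prm2+/+, 1 of 45 was called higher and 0 lower (0.181% of all genes were called), and the median LFC of the 45 was 0.02, as over all genes. In the list for storage and translation of the mRNAs, 5 of 12 genes had an unadjusted p under 0.05 (against 7.33% of all genes), with LFCs of 7.22 for Ybx2, 4.61 for Tarbp2, -0.14 for Papolb, -0.47 for Dazap1 and -0.55 for Strbp; in the other 4 lists 0 genes did. The called gene was Tarbp2, an RNA-binding protein needed for protamine mRNA translation, with 32.3, 4.29 and 16.6 normalized counts in Prm2+/+, 329, 363 and 379 in Prm2+/- and 354, 335 and 376 in Prm2-/-. Its levels in Prm2+/- and Prm2-/- overlapped, and it was also called between Prm2+/- and Prm2+/+ (1 of 45, against 0.0806%), while 0 of 45 were called between Prm2-/- and Prm2+/- (0.175%). Ybx2, which binds and stores protamine mRNAs, was at 37.1, 49.3 and 24.3 in Prm2+/+, 4274, 41.1 and 37.1 in Prm2+/- and 4937, 5230 and 6164 in Prm2-/-. Its Prm2-/- libraries all lay above those of Prm2+/+, and the interval of this LFC was 3.50 to 10.9. Ybx2 was still not called between Prm2-/- and Prm2+/+ (adjusted p = 0.355 in limma). The fit pools the spread of all genotypes, including that between 4274 and 37.1 within Prm2+/-. Missing the threshold therefore does not show that Ybx2 was unchanged. The paper lists Ybx2 among its upregulated genes. Tarbp2 and Ybx2 were named by the study from these samples, so their place in the list is not independent evidence.

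The other lists held no called gene in any of the 3 comparisons: 0 of 8 for transcription in spermatids, 0 of 16 for histone removal, 0 of 5 for replacement histones and 0 of 4 for protamine kinases and phosphatase. Crem, the spermatid activator of these promoters, had 238, 1284 and 123 normalized counts in Prm2+/+, 218, 260 and 188 in Prm2+/-, and 504, 568 and 928 in Prm2-/-. Fhl5, its coactivator, was at 92.9 in 1 Prm2+/- library and 130 in 1 Prm2-/- library, with 821 to 1159 in the other 7. Hspa2, a chaperone of transition proteins, was at 78.6 to 138 in 3 libraries (replicate 2 of Prm2+/+ and replicates 1 and 2 of Prm2+/-) and at 3210 to 3730 in the other 6. Such jumps between replicates of 1 genotype widened the intervals of these genes, and none was seen among the 7 genes, whose highest library was 1.17 to 1.49 times the lowest. Hspa4l and Ppp1cc were measured as tightly as the 7, with LFCs of -0.09 (95% interval -0.27 to 0.08) and -0.05 (-0.26 to 0.15) between Prm2-/- and Prm2+/+. H3f3a, which encodes the replacement histone H3.3, had 458, 466 and 202 normalized counts in Prm2+/+ and 446 to 480 in Prm2-/-, and H3f3b, which encodes the same protein, had 3138, 1648 and 3061 against 3198 to 3464. Parp2, a poly(ADP-ribose) polymerase of spermatid chromatin, had 69.4, 49.3 and 0 against 52.8 to 77.0. For each of these 3 genes a single library of Prm2+/+ lay far below the others of its genotype. It was replicate 3 for H3f3a and Parp2 and replicate 2 for H3f3b. H3f3b was as low in replicate 2 of Prm2+/- (1601), with 3143 and 3422 in the other Prm2+/- libraries.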

How the data were processed

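RNA of 9 testes (3 libraries per genotype) was sequenced as 3' reads of 50 bases. According to the labels and the article's methods, the authors trimmed with Trim Galore 0.4.5, mapped to GRCm38 with HISAT2 2.1, quantified with StringTie 1.3.3, removed pseudogenes and normalized with DESeq2. The deposited signal is a normalized count, for which the authors divided counts by a size factor of the library. Counts were recovered from the step between values, which divided 100% of them evenly (tolerance 0.01). For replicate 1 of Prm2+/- this step is near 1, a weaker sign. Normalized counts were compared as log2(value + 1) in limma 3.58.1 (lmFit, eBayes with trend; R 4.3.3), fitted to all 9 libraries with genotype as the only term and to 14893 genes kept by filterByExpr, all 7 genes among them. The p-values measure the spread between these libraries, each taken as 1 male. edgeR 4.0.16 and DESeq2 1.42.0 on the recovered counts, other scalings, pseudocounts (0.5 and 5), filters, sample sets, a replicate block and leaving out each library were alternatives.

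The 7 genes, the lists and the tests were chosen with earlier results of these data known. Genes were named by rule: the 7, genes overlapping them or within 100 kb of the cluster, called genes of each list (otherwise the 2 with the largest LFC between Prm2-/- and Prm2+/+), and the 3 most similar genes per member. Ldhc, Ybx2, Dazap1, Papolb and Strbp fall outside this rule and were named after their values were seen. Of the entries, 99.6% matched GENCODE M21, and promoters were RefSeq's (GRCm38.p6, 7 of 7 matched, H1fnt as H1f7). The fit was tested on simulated data.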

Additional observations from a re-analysis of the deposited data

How the results depend on the processing

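Each of the 7 genes was refitted under 18 alternatives per comparison (378 values), of which 0 were called and 367 kept their sign; the lowest adjusted p was 0.419 (limma) and the largest LFC 0.34 in size. The 11 changes of sign all came from leaving out 1 library. Leaving out each library gave, between Prm2-/- and Prm2+/+, LFCs of -0.079 to 0.055 for Prm1 and -0.14 to 0.049 for H1fnt, and, with no change of sign, 0.014 to 0.15 for Hils1 and -0.25 to -0.043 for Tnp2. Between Prm2+/- and Prm2+/+ it gave -0.046 to 0.089 for Prm1, -0.11 to 0.098 for Prm2, -0.20 to 0.037 for Prm3, -0.11 to 0.031 for Hils1 and -0.097 to 0.020 for H1fnt, and between Prm2-/- and Prm2+/- -0.11 to 0.082 for H1fnt. The log2 ratio of Prm1 to Prm2 differed by -0.21 between Prm2-/- and Prm2+/+ (-0.42 to -0.08 with a library left out), by 0.06 between Prm2+/- and Prm2+/+ (-0.14, without replicate 3 of Prm2+/+, to 0.20) and by -0.28 between Prm2-/- and Prm2+/- (-0.33 to -0.17).

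The count of all genes called moved more. It was 27 between Prm2-/- and Prm2+/+ (28 to 62 with a library left out), 12 between Prm2+/- and Prm2+/+ (9 to 43) and 26 between Prm2-/- and Prm2+/- (23 to 49). In that order of comparisons, at least 10 counts in every sample gave 9, 1 and 11 with fewer genes tested, and DESeq2 gave 131, 59 and 110, for which the cause was not tested. With only the 6 samples compared 53 genes were called between Prm2-/- and Prm2+/+ and 52 between Prm2-/- and Prm2+/-, and with any count above 0 it was 21 between Prm2+/- and Prm2+/+. Over all genes tested, replicate numbers did not pair the libraries (correlations of same-numbered libraries -0.04 to 0.04), and a replicate block gave 15, 6 and 14 and called 0 of the 7 genes. For Prm2, however, replicate 3 was the highest library of each genotype, and the block narrowed its interval. Between Prm2-/- and Prm2+/+ it was 0.06 to 0.34 (unadjusted p = 0.0127, adjusted p = 0.618 in limma). Between Prm2-/- and Prm2+/- it was 0.10 to 0.38 (unadjusted p = 0.0057, adjusted p = 0.780 in limma).

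With 3 libraries per genotype, the spread between libraries, not depth, sets the width of the intervals, which differs between the genes: between Prm2-/- and Prm2+/+ it ran from -0.24 to -0.01 for Tnp1 and from -0.53 to 0.02 for Prm3.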
